A study of Homo sapiens with 6 samples.

Results

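*GUSB* and the pseudogene copies of it were examined by sequencing of total RNA in MDA-MB-231, an established line of human breast cancer cells, with and without knockdown of *RBMS3*, which encodes an RNA-binding protein. The members were taken by symbol, as *GUSB* or *GUSBP* followed by a number, and were 4 of the 15917 genes in the authors' table: *GUSB*, *GUSBP2*, *GUSBP3* and *GUSBP4*. The family was chosen from the position of *GUSBP3* in the study's plot of knockdown against control cells, so its place in that comparison is not a finding. The series has 6 libraries, of which 2 carried the control hairpin shCTRL, 2 the hairpin shRBMS3-B3 and 2 the hairpin shRBMS3-C3. All were made from 5 ng of RNA of cells in the same medium with a stranded total RNA kit that removes ribosomal cDNA. The hairpins were delivered by lentivirus.

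The value used for each gene was the mean normalized count that the authors computed over libraries. It is a single value per gene, pooled over knockdown and control cells, so values per library, their spread and the difference between knockdown and control cells were not analysed here. The depth of the libraries is unknown and no value below carries an SD. Across the table this mean ran from 26.7 to 859682 with a median of 364. The mesenchymal markers *VIM*, *CD44*, *AXL* and *CAV1* had mean normalized counts of 69335, 10047, 35388 and 4947. Of the luminal and epithelial markers, *ESR1* and *PGR* were not listed, *ERBB3* stood at 265 and *CDH1* at 31.6, near the lowest listed value.

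*GUSB* encodes β-glucuronidase, a lysosomal enzyme that removes glucuronic acid from glycosaminoglycans, and loss of it causes the storage disease mucopolysaccharidosis VII. The gene is expressed in most tissues and is often used as a reference in qPCR. A pseudogene is a gene copy that no longer encodes the full protein. An unprocessed pseudogene arose from duplication of genomic DNA and retains introns, while a processed one was copied back from mRNA. Many partial copies of *GUSB* lie in duplicated segments of the human genome, among them the segment of chromosome 5 around the *SMN* genes.

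*GUSB* (ENSG00000169919) spans bases 65960684 to 65982215 of chromosome 7 on the minus strand, by GENCODE release 44 on hg38. Its canonical transcript has 12 exons and 2199 bases, with a coding sequence of 1956 bases for 651 residues. *GUSBP3* (ENSG00000253203) spans bases 69640266 to 69679193 of chromosome 5, also on the minus strand. *GUSBP2* (ENSG00000241549) and *GUSBP4* (ENSG00000239650) span bases 26878572 to 26889198 and 57919784 to 57930291 of chromosome 6, both on the minus strand. All 3 copies are annotated as transcribed unprocessed pseudogenes with 1 transcript each, of 423 bases in *GUSBP3*, 801 bases in *GUSBP2* and 672 bases in *GUSBP4*. These transcripts have 4, 5 and 5 exons, so the copies retained a split structure.

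To show how the copies relate to the gene, a stretch of 90 bases of the coding sequence is given for all 4 members. It lies in exon 5 of *GUSB* and was taken as the stretch within 1 exon that all 3 copies hold without a gap and in which most positions differ. Capitals mark the bases at which a copy differs from *GUSB*, and, in the *GUSB* line, the same positions. Sequences run 5′ to 3′ on the minus strand of hg38, at chr7:65976030-65976119 for *GUSB*, chr6:26889025-26889114 for *GUSBP2*, chr5:69645897-69645986 for *GUSBP3* and chr6:57930119-57930208 for *GUSBP4*.
GUSB: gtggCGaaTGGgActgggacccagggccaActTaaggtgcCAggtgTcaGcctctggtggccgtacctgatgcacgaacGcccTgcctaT
GUSBP2: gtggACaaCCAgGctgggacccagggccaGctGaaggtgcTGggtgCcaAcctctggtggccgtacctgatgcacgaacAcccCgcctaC
GUSBP3: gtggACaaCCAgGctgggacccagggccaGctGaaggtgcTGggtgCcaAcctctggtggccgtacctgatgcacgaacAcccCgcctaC
GUSBP4: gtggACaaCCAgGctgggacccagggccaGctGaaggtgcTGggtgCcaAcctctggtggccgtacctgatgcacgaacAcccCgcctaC
Each copy differed from *GUSB* at 15 of the 90 bases and was 83.3% identical to it here. The 15 positions and the bases at them were the same in the 3 copies, whose lines are identical to one another although they come from 3 loci on 2 chromosomes.

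This held over most of the shared sequence. The 3 copies could be compared with *GUSB* at 372 positions, of which 331 were the same in all 4. At 41 positions at least 1 copy differed from *GUSB*, and at 34 of these, or 82.9%, all 3 copies had the same base. The copies differed among themselves at 7 positions. Over all their aligned bases, *GUSBP2* was 91.4% identical to the *GUSB* transcript, *GUSBP4* 91.1% and *GUSBP3* 90.1%. Between copies, the longest alignment of *GUSBP2* and *GUSBP4* ran over 672 bases with 98.5% identity. *GUSBP2* and *GUSBP3* were identical over an alignment of 189 bases. The copies were thus closer to one another than to *GUSB* in sequence.

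The copies hold the middle of the *GUSB* transcript only. *GUSBP2* and *GUSBP4* aligned to 30.6% of it each, and covered at least 50% of exons 5, 6, 9, 10 and 11. *GUSBP3* aligned to 17.0% of it, in exons 5, 9 and 10, and stopped at position 1607 of the 2199 bases. Apart from at most 3 bases at exon borders, none of the 3 aligned in exons 1 to 4, with the start codon, in exons 7 and 8, or in exon 12, which carries the stop codon and the whole 3′UTR of 213 bases. In *GUSBP4* 100% of the transcript aligned to *GUSB*, against 88.4% in *GUSBP3* and 84.0% in *GUSBP2*, whose remaining bases did not align to the gene.

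**Figure D1:**
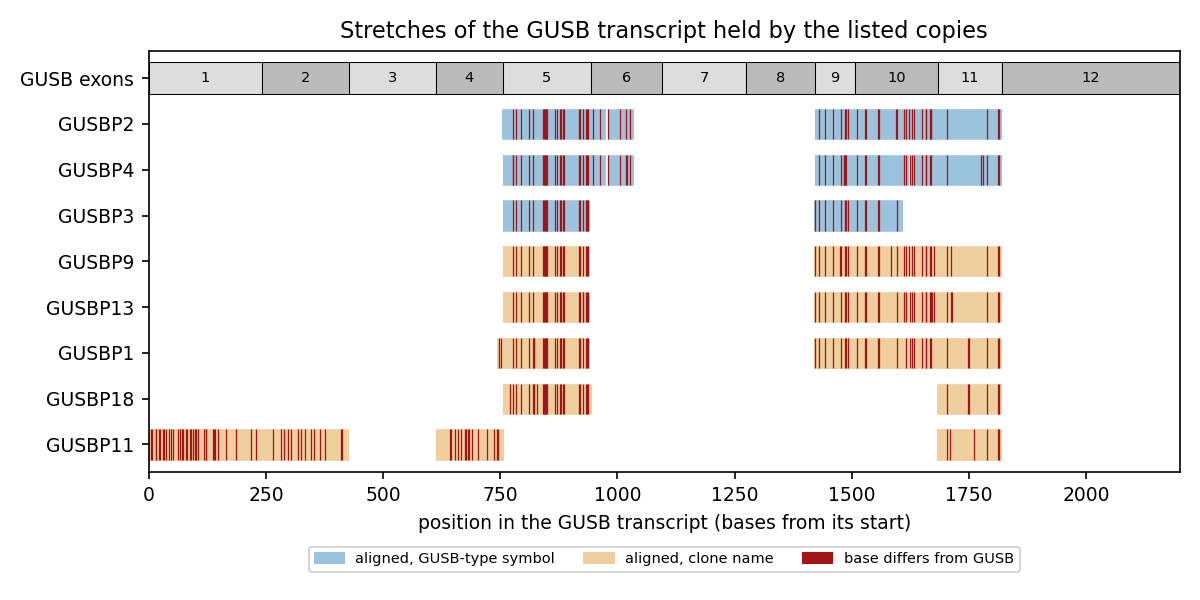
Stretches of the canonical GUSB transcript (horizontal axis, bases from its start) to which the transcripts of the 8 listed copies aligned. Grey boxes are the 12 exons of GUSB, blue bars the copies listed under a GUSB-type symbol, orange bars those listed under a clone name, and red lines the bases that differ from GUSB. All 3 blue copies hold exon 5 and sequence from exon 9 on, GUSBP2 and GUSBP4 also part of exon 6, GUSBP3 ends within exon 10, and their red lines stand at mostly the same positions.

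The AUA element that the study assigns to RBMS3, an ATA core with an A or T and then an A after it, and with an A or T and, before that, any base but C in front of it, occurred 3 times in the *GUSB* transcript, of which 2 were in the 3′UTR and 1 in the coding sequence. The transcripts of the 3 member identifiers of *GUSBP2*, *GUSBP3* and *GUSBP4* held 0 each on the sense strand. A lncRNA that also carries the symbol *GUSBP2* (ENSG00000290474), without a row in the table, held 1 in its canonical transcript. Of the 15829 listed genes with an annotated transcript, 78.6% had at least 1 match, with a median of 1.07 matches per kb. That share is over transcripts of all lengths, while those of the 3 copies have only 423 to 801 bases. Whether the 0 matches set the copies apart from other transcripts of their length was therefore not tested. A match is a description of the letters and was not tested for binding.

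*GUSB* had by far the highest level of the 4. The authors' mean normalized count was 1404 for *GUSB*, 154 for *GUSBP3*, 136 for *GUSBP2* and 34.2 for *GUSBP4*. *GUSB* was 9.11-fold above *GUSBP3*, 10.3-fold above *GUSBP2* and 41.0-fold above *GUSBP4* on this scale, which is not divided by gene length. Whether *GUSBP3* and *GUSBP2* differ, by 154 to 136, cannot be judged without values per library.

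In the table as a whole, *GUSB* stood at percentile 81.5 of all listed genes and the copies below the median, at percentile 32.3 for *GUSBP3*, 29.8 for *GUSBP2* and 5.51 for *GUSBP4*. *GUSBP4* lay just above the lowest value listed, so copies of lower level may have no row. Among the 2744 listed genes that are annotated as pseudogenes or lncRNAs, *GUSBP3* stood at percentile 75.6, *GUSBP2* at 72.7 and *GUSBP4* at 16.4. The median over the 1400 listed pseudogenes was 76.1, which *GUSBP3* and *GUSBP2* exceeded and *GUSBP4* did not reach.

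**Figure D2:**
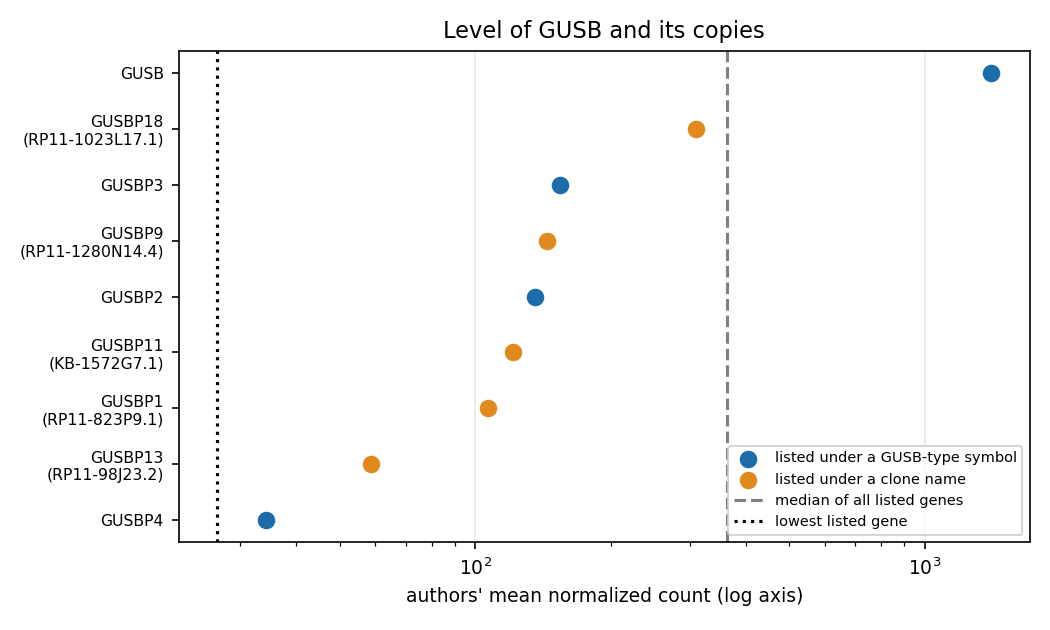
Authors' mean normalized count (horizontal log axis) of GUSB and of the 8 copies that have a row in the table, 1 point per gene. Blue points are listed under a GUSB-type symbol and orange points under a clone name, given in brackets. GUSB at 1404 is the only one above the dashed median of all listed genes, 364, and GUSBP4 at 34.2 lies next to the dotted lowest value, 26.7.

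Transcript length changes this picture. The mean normalized count per kb of canonical transcript was 638 for *GUSB*, 364 for *GUSBP3*, 170 for *GUSBP2* and 51.0 for *GUSBP4*. The order of the 4 members was the same, but *GUSBP3* reached 57.1% of *GUSB* per kb, against 11.0% per gene. With the union of all annotated exons as length, which is 3893 bases for the 14 transcripts of *GUSB*, *GUSBP3* came to 101% of *GUSB*, and the order of these 2 members turned. The annotation that the authors counted against is not given in the sources used here, so levels per kb depend on gene models that may not be theirs.

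The copies together had a mean normalized count of 324, or 23.1% of that of *GUSB*. More copies were in the table under other names. GENCODE release 44 names 19 copies of *GUSB*, 12 of them on chromosome 5, and 8 of the 19 have a row by identifier. Of these 8, 5 appear under clone names: *GUSBP18* as RP11-1023L17.1 with a mean normalized count of 310, *GUSBP9* as RP11-1280N14.4 with 145, *GUSBP11* as KB-1572G7.1 with 121, *GUSBP1* as RP11-823P9.1 with 107 and *GUSBP13* as RP11-98J23.2 with 58.7. *GUSBP3* was thus the highest copy by the symbols of the table but the next one after *GUSBP18* by identifier. Whether its 154 differs from the 145 of *GUSBP9* or the 136 of *GUSBP2* cannot be judged without values per library. With these 5 included, the copies summed to 1066, or 76.0% of *GUSB* per gene. Per kb of canonical transcript the 3 member copies summed to 91.6% of *GUSB* and all 8 to 279%, so on that scale the copies together lay above the gene. *GUSBP18* alone, at 678 per kb, reached 106% of *GUSB*. The 11 copies without a row were *GUSBP5*, *GUSBP6*, *GUSBP7*, *GUSBP8*, *GUSBP10*, *GUSBP12*, *GUSBP14*, *GUSBP15*, *GUSBP16*, *GUSBP17* and *GUSBP19*.

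Reads can be assigned to 1 of several copies only where their sequences differ. Paired ends of 75 bases were sequenced, so each canonical transcript was divided into all windows of 75 bases. A window was counted as shared when it occurred without mismatch in a transcript of a gene with another symbol. A pair can be placed when either of its ends differs, so the shares below describe single ends rather than pairs. In *GUSBP3*, 349 of 349 windows, or 100%, occurred in another gene. The share was 69.2% of 598 windows in *GUSBP4* and 49.7% of 727 in *GUSBP2*. A lncRNA that overlaps *GUSBP2* has the same symbol and was left out by this rule, whereas those at *GUSBP3* and *GUSBP4* were counted. Within the family alone the shares were 100% for *GUSBP3*, 49.7% for *GUSBP2* and 39.6% for *GUSBP4*, so the order of the last 2 turned. In *GUSB* it was 0.471% of 2125 windows, which were 10 windows held by *GUSBP2*, 2 of which *GUSBP9* held as well. For comparison, over the 15793 listed genes long enough for a window, the median share was 0, and 8.93% of genes had more than 50% of their windows in another gene. This comparison counted other identifiers of the same symbol as other genes, so it follows another rule than the shares above. By its rule *GUSBP3* stood at percentile 99.0 of share, *GUSBP2* at 95.3, *GUSBP4* at 93.1 and *GUSB* at 71.7.

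Among the members, *GUSBP3* shared 61.0% of its windows with *GUSBP2* and 122 of its 349 windows with *GUSBP4*, and *GUSBP4* shared 37.5% of its windows with *GUSBP2*. All windows of *GUSBP3* were also present in *GUSBP14*, at another place on chromosome 5 and without a row in the table. They were present too in a lncRNA, ENSG00000290560, that overlaps the exons of *GUSBP3* on the same strand. Such an overlapping lncRNA on the same strand is annotated at *GUSBP2* and at *GUSBP4* also, and the one at *GUSBP4* held 51.7% of its windows. By the GENCODE transcripts used here, *GUSBP3* thus had no 75-base window of its own, whereas the windows of *GUSB* were almost all its own. Which transcripts the authors counted for either gene is not known. The sequence behind their levels may therefore differ from these transcripts, which was not tested. How reads that fit several copies were divided is not given in the sources used here, and its part in the levels of the copies was not tested.

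**Figure D3:**
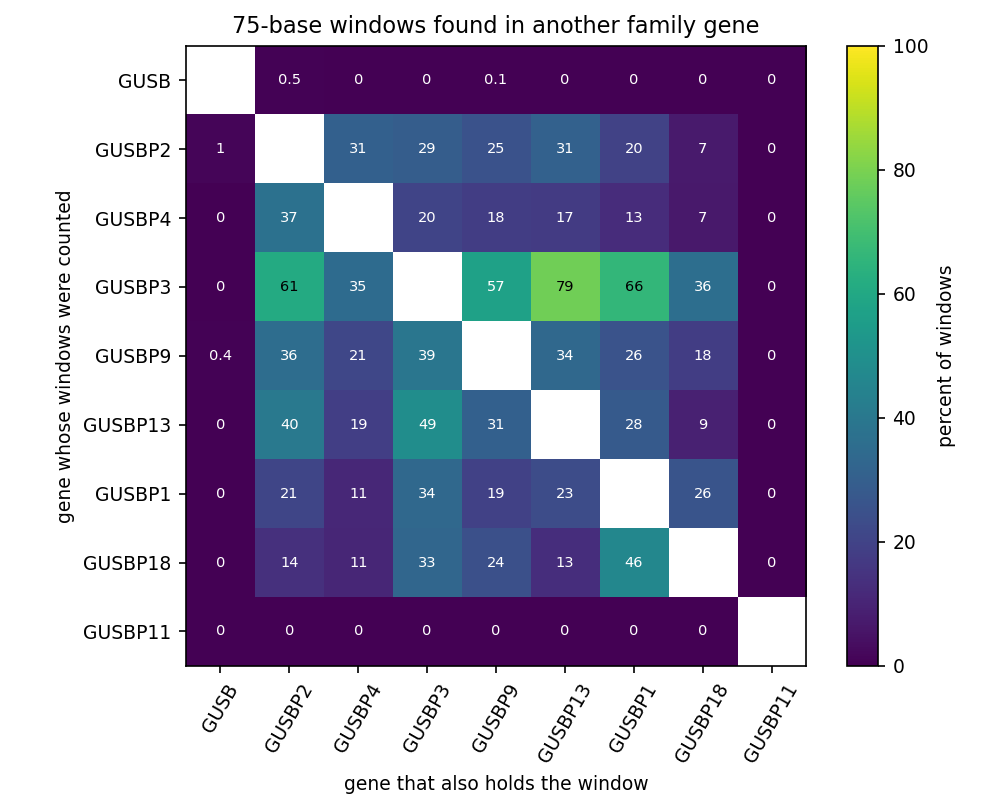
Percent of the 75-base windows of each listed family gene (rows) that occur without mismatch in another one (columns), from dark blue at 0 to yellow at 100. The GUSB row holds at most 0.471%, while the GUSBP3 row reaches 61.0% for GUSBP2 and 78.5% for GUSBP13.

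The 34 bases that set the 3 copies apart from *GUSB* were also those of the copies under clone names. *GUSBP1*, *GUSBP9* and *GUSBP13* cover all 34 positions and had the base of the copies at 34 of them, and *GUSBP18* covers 23 and had it at 23. *GUSBP11* differs in structure, with aligned stretches in exons 1, 2, 4 and 11 of *GUSB*, and shared no 75-base window with the family.

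As a lysosomal enzyme gene, *GUSB* was set beside 21 genes of lysosomal glycan breakdown, of which all 21 were listed. Per kb of canonical transcript it ranked 5 of 22, at 638 against a list median of 195. The highest was *CTSA*, a protease that protects β-galactosidase and neuraminidase, at 1321. *IDS*, the sulfatase that precedes the other enzymes in heparan and dermatan sulfate breakdown, came next below *GUSB* at 465, and *MANBA*, β-mannosidase, was lowest at 59.3.

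Among 14 other genes in common use as qPCR references, *GUSB* was one of the low ones. It ranked 13 of 15 per kb, above *IPO8* at 325 and *TBP* at 203. *ACTB*, the highest, was 120-fold above *GUSB* per kb. Whether *GUSB* differs from *HPRT1*, at 749, cannot be judged without values per library.

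**Figure D4:**
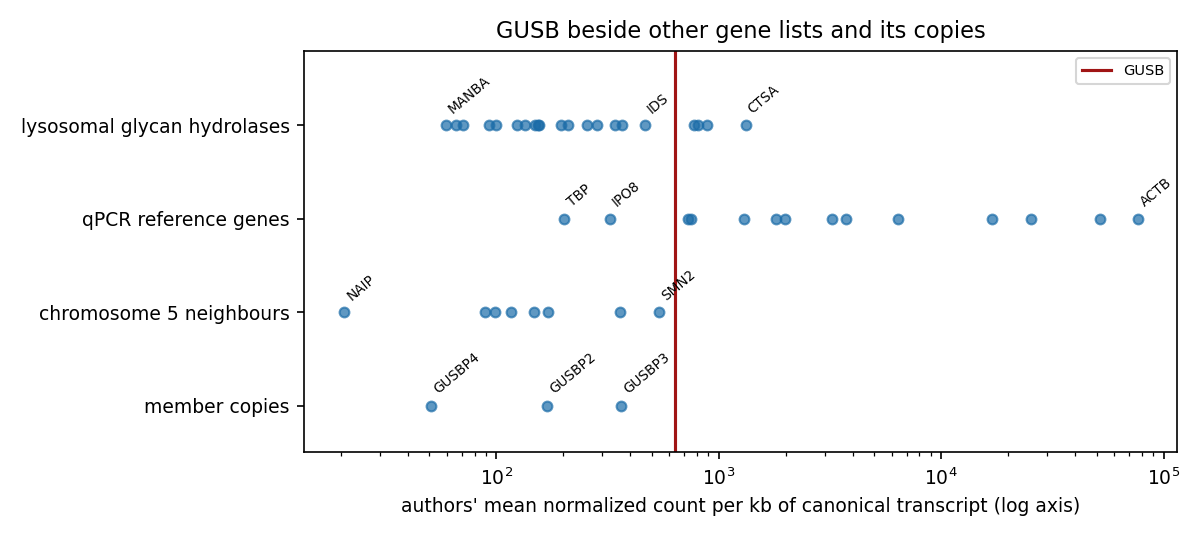
Authors' mean normalized count per kb of canonical transcript (horizontal log axis) for 3 gene lists and for the 3 member copies, 1 point per gene, with the red line at GUSB (638). GUSB lies above 17 of the 21 lysosomal genes and below 12 of the 14 reference genes, and the copies lie at 51.0 to 364.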

How the data were processed

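RNA sequencing of the 6 libraries was represented by 1 table of the authors' own comparison. The submitters' processing notes name Salmon, DESeq2 and hg38, without versions or roles. The annotation is not given for this experiment in the sources used here. The study describes the comparison as made with 2 replicates on either side, without saying which of the 6 libraries these were. The deposited signal used here is a mean normalized count per gene, not divided by length. The other deposited columns hold the authors' log2 fold changes, their standard errors, test statistics, p-values and adjusted p-values and were not used, so no test between knockdown and control cells was made. The planned count test needs values per library and was not run.

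Members and lists were chosen with earlier results of these data known. Text names all members, all annotated copies, and from each list the highest, the lowest and the genes next to *GUSB*. *HPRT1* was added after its value was seen, and some genes that the rule names are not reported here. Ensembl identifiers placed 15829 of 15917 rows in GENCODE release 44. Symbols differ in 3204 cases and are printed as in the table, except for the copies found by identifier. Windows of 75 bases were matched exactly on the sense strand to all GENCODE transcripts, and the function was tested on simulated data. Canonical transcripts were aligned with BLAST 2.17.0 (blastn, alignments of at least 100 bases). The printed sequences were read from GENCODE transcripts and checked against hg38. Python 3.11.15 with numpy 2.4.6, pandas 2.3.3 and matplotlib 3.10.9 was used.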

Additional observations from a re-analysis of the deposited data

How the results depend on the processing

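Of 34 alternatives over 20 results, 18 stayed within 1.5 times the reported value and 16 did not. Levels of the copies as a percent of *GUSB* rose when divided by canonical transcript length, to 57.1 for *GUSBP3*, 26.6 for *GUSBP2* and 7.98 for *GUSBP4*, and with the exon union as length to 101, 47.1 and 14.1, by construction, since *GUSB* is longer. Within pseudogenes and lncRNAs the percentiles were 75.6 for *GUSBP3*, 72.7 for *GUSBP2* and 16.4 for *GUSBP4*. With the symbols of GENCODE the members numbered 9 in place of 4. The copies summed to 91.6% of *GUSB* per kb, and to 12.1% per gene without *GUSBP3*. With all copies named by the annotation they summed to 76.0% per gene, or 279% per kb. That set was added after the data had been seen, as was a length for *GUSBP2* over both identifiers of its symbol. This length put *GUSBP2* at 18.2% of *GUSB* per kb. The share of *GUSB* windows in another gene was 1.77% with 50 bases, 0% with 100 bases and 0.211% over all transcripts. Window shares of the member copies stayed within 1.5 times under the same changes, as did identities with alignments of 50 bases or more. The share of *GUSBP4* within the family alone, 39.6% against 69.2%, moved further and was not among the 34 alternatives. No replicate could be left out and no library's weight can be seen. No paired analysis was possible because only means over libraries were used.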

Other observations

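Listed pseudogenes with no GUSB-type name in GENCODE release 44 also shared sequence with the members. RP11-1415C14.4 (ENSG00000254701), with a mean normalized count of 180, held 86.0% of the 75-base windows of *GUSBP3*, 33.4% of those of *GUSBP2* and 20.6% of those of *GUSBP4*. RP11-497H16.8 (ENSG00000253333), at 56.0, held 27.8% of the windows of *GUSBP3*. Both were picked with their values in view.

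All 8 genes of the duplicated chromosome 5 segment that had been set beside the copies were listed, and all 8 lay below *GUSB* per kb of canonical transcript. The highest was *SMN2*, which encodes the survival motor neuron protein, at a mean normalized count per kb of 540, followed by its near-identical paralog *SMN1* at 360, close to the 364 of *GUSBP3*. *NAIP*, an inhibitor of apoptosis and inflammasome sensor, was lowest at 20.7. As with the copies of *GUSB*, reads of *SMN1* and *SMN2* can be assigned to either gene only at the few bases that differ, so both values are uncertain.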
